A study of Mus musculus with 6 samples.

Results

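Autophagy starts with 2 protein complexes, a protein kinase complex and a lipid kinase complex. The 10 genes described here encode their subunits, together with UVRAG, which defines a separate form of the lipid kinase complex. They were taken by gene symbol from the 55487 genes of the deposited table, and each matched 1 Ensembl identifier. The initiation kinase complex is represented by Ulk1, Ulk2, Rb1cc1, Atg13 and Atg101, and the class III phosphatidylinositol 3-kinase (PI3K) complexes by Becn1, Pik3c3, Pik3r4, Atg14 and Uvrag. RNA was sequenced from cortical microglia, the macrophages that reside in the brain, of 6 female mice at an age of 20 months. The 3 knockouts were Atg7-fl/fl;Cx3cr1-CreERT2, in which a ligand-dependent Cre made from the Cx3cr1 promoter removes the floxed part of Atg7. The 3 controls were Atg7-fl/fl without Cre. All 6 mice thus shared the floxed Atg7 alleles, and effects of losing Atg7 and of carrying Cre cannot be told apart. Cx3cr1 is also active in other brain macrophages and in monocytes, and any drug treatment used to activate the Cre is not given in the labels. The labels number the libraries as biological replicates.

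In well-fed cells the kinase mTORC1 holds the ULK1 complex inactive, and on starvation or energy stress the complex is released and activated, with AMPK as a further upstream kinase. The active ULK1 complex then recruits and phosphorylates the class III PI3K complex, whose lipid product, phosphatidylinositol 3-phosphate (PI3P), marks the membrane on which the autophagosome forms. ATG7 acts downstream of both complexes, as the enzyme that activates LC3 and ATG12 for conjugation. In microglia this pathway is known for clearing damaged organelles and for limiting inflammatory signalling.

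The depth of the libraries was uneven. Knockouts 1 to 3 had 33129233, 3789208 and 21282335 reads, and controls 1 to 3 had 39389527, 38798703 and 1254380 reads. Knockout 2 and control 3 are called the shallow libraries here. The 10 genes had 29 to 288 reads each in knockout 2 and 6 to 81 reads in control 3, against 193 to 3153 reads in the other 4 libraries. Levels are given as CPM, the reads of a gene over the library total scaled with TMM factors. Microglial markers dominated the marker lists, with summed levels of 40400 to 45400 CPM in knockouts and 53000 to 57400 CPM in controls over 10 genes. Cx3cr1, whose locus holds the Cre, is 1 of those 10. The summed levels of 7 border macrophage markers were 62.3 to 248 CPM in knockouts and 14.9 to 84.9 CPM in controls. Those of 5 monocyte markers were 19.4 to 136 CPM in knockouts and 9.81 to 47.1 CPM in controls, and those of 6 neutrophil markers were 138 to 1980 CPM in knockouts and 44.1 to 475 CPM in controls. The sums of 5 oligodendrocyte markers were 95 to 112 CPM in knockouts and 61.3 to 100 CPM in controls. For 4 endothelial markers they were 35.7 to 53.5 CPM in knockouts and 34.9 to 83.3 CPM in controls. Astrocyte sums were 13.1 to 25.1 CPM over all 6 libraries, and neuron, T and NK cell and B cell sums at most 5.5 CPM. None of the border macrophage, monocyte or neutrophil markers was at 0 in every library. The part of all these other cells in the values below was not tested. In bulk samples, fewer cells of a type and less RNA per cell cannot be told apart.

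Atg7 served as the check of the labels. It had 25.0, 26.5 and 23.7 CPM in knockouts 1 to 3, against 65.7, 66.4 and 56.6 CPM in controls 1 to 3. The log2 fold change was -1.33 (SE 0.19, edgeR adjusted p = 0.0147), with no overlap between the groups. The call was lost when any library other than control 3 was left out (adjusted p = 0.0527 to 0.135) and without edgeR's robust option (0.066), and the fold change then lay between -1.39 and -1.29. Exons outside the floxed part are still counted. Cx3cr1 averaged 4710 ± 791 CPM in knockouts and 10600 ± 907 CPM in controls (SD, n = 3 each), a log2 fold change of -1.17 (edgeR adjusted p = 0.00126).

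None of the 10 subunit genes passed the test in either direction. Their log2 fold changes lay between -0.37 for Rb1cc1 and 0.44 for Ulk1, with a median of 0.06, 6 above 0 and 4 below. Over all 15787 genes tested the median was 0.02. Every one of the 10 genes passed the filter on low counts. EdgeR called 0 of them, where 0.0443% of all genes tested were called (0.0317% higher and 0.0127% lower). DESeq2 and limma voom also called 0 of the 10, where they called 0.527% and 0.095% of all genes. At an unadjusted p under 0.05, edgeR gave 0 of the 10, against 4.32% of all genes tested (2.34% higher and 1.98% lower). The median size of the fold change, regardless of sign, was 0.18 over the 10 genes and 0.17 over the 5380 genes with a mean level in the same range, 11.8 to 76.1 CPM.

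The precision differed between the genes. For 8 of the 10, the 95% interval of the log2 fold change lay inside a 2-fold change in either direction. The exceptions were Ulk1, whose interval from -0.44 to 1.32 includes a 2-fold higher level, and Rb1cc1, whose interval from -1.07 to 0.33 includes a 2-fold lower one. The interval of Atg7 ran from -1.74 to -0.93, and the intervals of 9 of the 10 subunit genes lay wholly above it. That of Rb1cc1 reached into it.

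**Figure D1:**
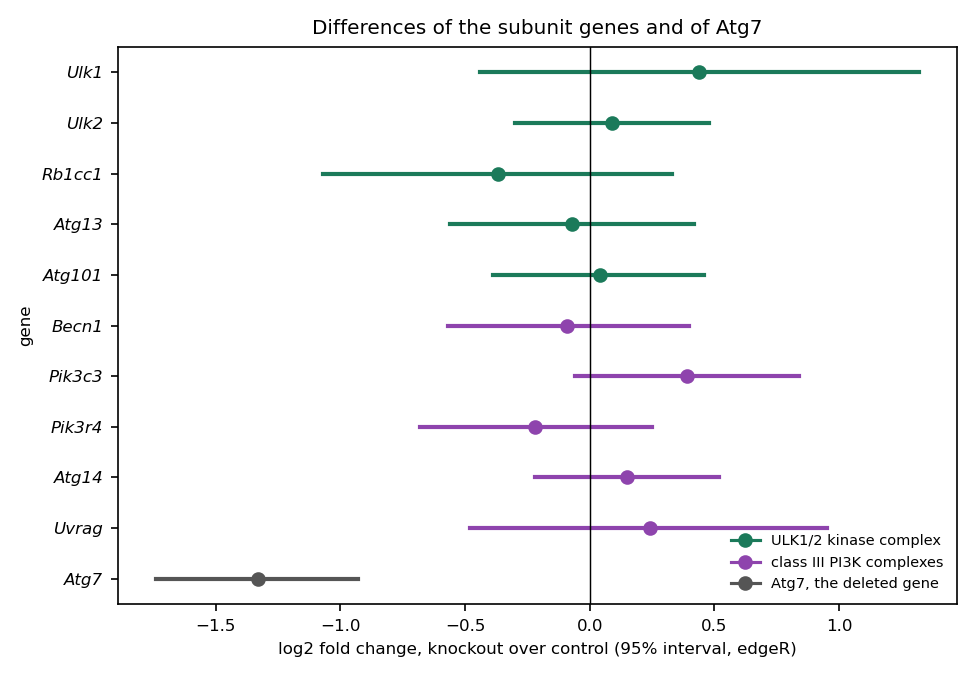
Log2 fold change, knockout over control, of the 10 subunit genes and of Atg7, with points for the edgeR estimate and bars for its 95% interval. The intervals of all 10 subunit genes include 0, while that of Atg7 runs from -1.74 to -0.93.

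The kinase subunits come first. ULK1 and ULK2 are paralogous serine/threonine kinases that can each serve as the catalytic subunit. Ulk1 had 13, 20.0 and 8.97 CPM in knockouts 1 to 3, against 14.9, 9.14 and 4.71 CPM in controls 1 to 3. The groups overlapped, and the lowest value, in control 3, rested on 6 reads (95% Poisson interval 1.73 to 10.3 CPM, counting error only). The log2 fold change was 0.44 (SE 0.41, edgeR adjusted p = 0.999). It was -0.13 (SE 0.34) without both shallow libraries, and from 0.10 without knockout 2 to 0.91 without control 1 over the fits with 1 library left out. With all 6 libraries, limma voom gave 0.05 (SE 0.32), and 0.08 (SE 0.34) with weights for library quality.

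Ulk2 had 67.6, 74.8 and 93.3 CPM in knockouts 1 to 3, against 77.2, 79.8 and 63.6 CPM in controls 1 to 3. Knockout 3 was the highest library and control 3 the lowest, and the others lay between them in mixed order. Means were 78.6 ± 13.2 CPM in knockouts and 73.6 ± 8.68 CPM in controls (SD, n = 3 each), a log2 fold change of 0.09 (95% interval -0.30 to 0.48) that turned to -0.08 without knockout 3.

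Ulk2 was the more abundant paralog in every library. Per exonic length, the log2 ratio of Ulk1 over Ulk2 was -2.50, -2.02 and -3.50 in knockouts 1 to 3 and -2.50, -3.24 and -3.87 in controls 1 to 3. Ulk2 thus stood 4.06 to 14.7 times above Ulk1, and 3.81 to 13.8 times above it per coding length. The ratio overlapped between the groups. Its mean was higher by 0.53 in knockouts, within the SD of 0.75 in knockouts and 0.69 in controls, and it was lower by 0.13 in knockouts without both shallow libraries (knockout minus control, -0.13).

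The promoters of both paralogs are shown because the 2 genes differed in level in every library. The windows run from 250 bases before to 50 bases after the annotated start (RefSeq, GRCm38.p6), and matched entries were found for 7 of the 10 genes. Capitals mark CCCGCC or its reverse complement GGCGGG, letters found within the GC box bound by SP1 and related factors. Other forms of the GC box were not searched.
Ulk1 (chr5:110810032-110810331, minus strand): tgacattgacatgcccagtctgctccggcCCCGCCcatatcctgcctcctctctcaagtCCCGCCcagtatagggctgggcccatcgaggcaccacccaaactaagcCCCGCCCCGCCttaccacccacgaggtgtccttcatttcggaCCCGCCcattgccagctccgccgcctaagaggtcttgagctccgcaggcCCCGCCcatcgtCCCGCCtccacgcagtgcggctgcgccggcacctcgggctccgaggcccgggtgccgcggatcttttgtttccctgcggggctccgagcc
Ulk2 (chr11:61855043-61855342, minus strand): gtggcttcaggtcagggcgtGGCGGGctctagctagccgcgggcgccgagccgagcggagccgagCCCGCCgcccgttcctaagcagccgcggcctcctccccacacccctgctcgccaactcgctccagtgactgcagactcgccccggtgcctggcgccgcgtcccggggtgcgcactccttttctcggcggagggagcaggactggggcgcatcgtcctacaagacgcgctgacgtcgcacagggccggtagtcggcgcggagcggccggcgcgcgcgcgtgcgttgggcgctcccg
The Ulk1 window held 7 such matches, of which 2 overlap each other, and the Ulk2 window held 2. A match was present in 35.3% of all 32851 promoter windows, both strands searched. The Ulk1 window had 26 CpG dinucleotides and the Ulk2 window 45, where the median of all windows was 7. These are descriptions of the letters and were not related to the levels by a test.

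Rb1cc1, also called FIP200, encodes the large scaffold on which the kinase complex assembles. It had 17.1, 7.53 and 16.5 CPM in knockouts 1 to 3, against 19.2, 14.9 and 20.4 CPM in controls 1 to 3. The low value of knockout 2 came from 29 reads, and the other knockouts lay within the range of the controls. Its log2 fold change was -0.37 (SE 0.33, edgeR adjusted p = 0.999) and -0.12 without knockout 2, -0.58 without knockout 1 and -0.03 without both shallow libraries. In the GENCODE M21 annotation, 3.80% of the exonic bases of Rb1cc1 are shared with 4732440D04Rik on the opposite strand, which itself had 4.74 to 8.31 CPM in knockouts and 1.68 to 7.86 CPM in controls.

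Atg13 and Atg101 encode HORMA-domain adaptor proteins that bind each other and link the kinase to the scaffold. Atg13 had 36.8, 30.9 and 37.2 CPM in knockouts 1 to 3, against 30.7, 32.7 and 49.5 CPM in controls 1 to 3. Atg101 had 82.0, 72.5 and 69.3 CPM in knockouts 1 to 3, against 82.9, 82.0 and 51.1 CPM in controls 1 to 3. Control 3 was thus the highest of the 6 libraries for Atg13 and the lowest for Atg101, on 63 and 65 reads. The log2 fold changes were -0.07 (95% interval -0.56 to 0.42) for Atg13 and 0.04 (-0.39 to 0.46) for Atg101, and both changed sign without control 3, at 0.14 and -0.15.

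The log2 ratio of Atg13 over Atg101 reads was -1.15, -1.23 and -0.90 in knockouts 1 to 3 and -1.44, -1.32 and -0.05 in controls 1 to 3. Control 3 alone stood near equal reads. The ratio was lower by 0.16 in knockouts over all libraries (knockout minus control, -0.16) and higher by 0.29 without control 3.

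**Figure D2:**
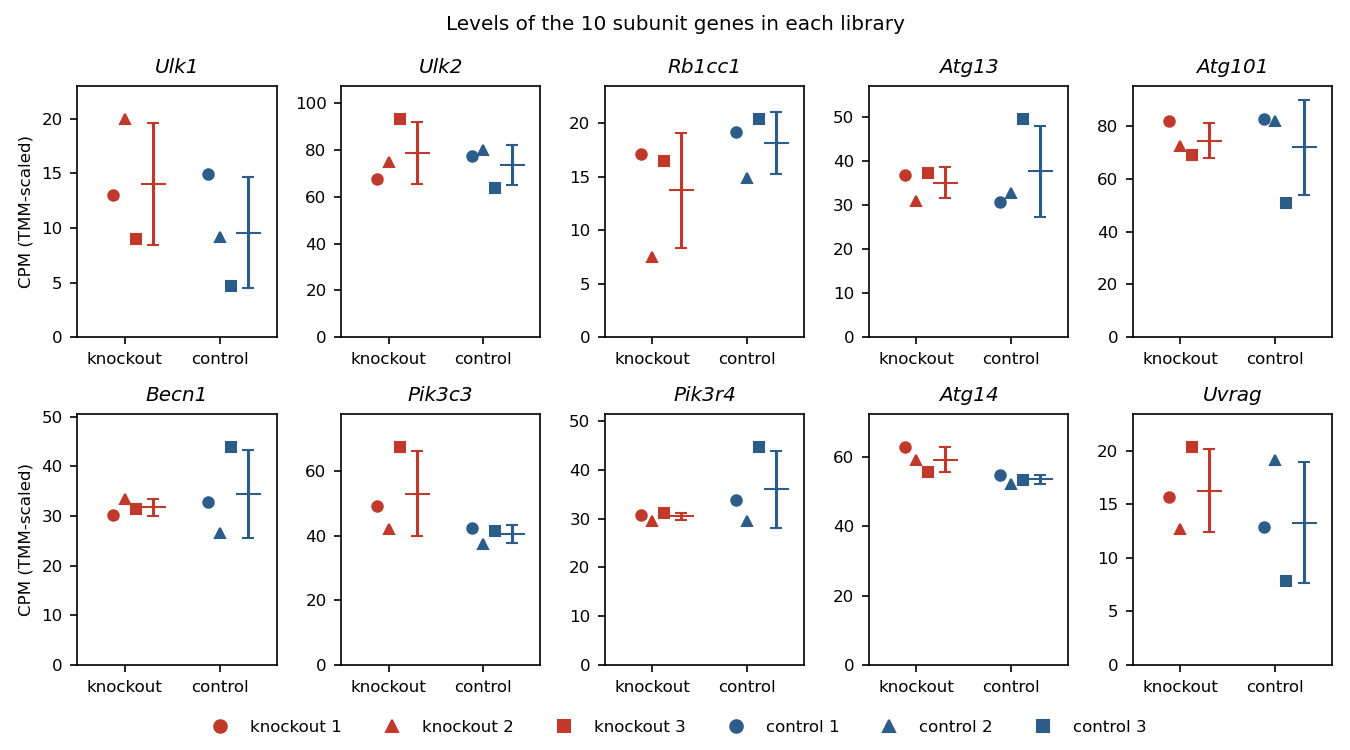
TMM-scaled CPM of each subunit gene in each library, knockouts in red and controls in blue, with the mean and SD of 3 libraries beside the points; each panel has its own axis from 0. Atg14 is the only panel in which the groups do not overlap, and control 3 (blue square) lies at an end of the range in 8 of the 10 panels.

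The lipid kinase genes follow. Pik3c3 encodes VPS34, the catalytic subunit that makes PI3P. It had 49.1, 42.1 and 67.6 CPM in knockouts 1 to 3, against 42.5, 37.4 and 41.6 CPM in controls 1 to 3. Knockouts 1 and 3 lay above all controls, and knockout 2 lay just below control 1. The log2 fold change was 0.39 (SE 0.21, 95% interval -0.06 to 0.84), with the smallest unadjusted p of the 10 genes (0.0838, edgeR adjusted p = 0.999). The size rested on knockout 3: without it the fold change was 0.15 (SE 0.22). Without knockout 2 it was 0.51 (SE 0.22, edgeR unadjusted p = 0.0353, not called after adjustment). Without both shallow libraries it was 0.54 (unadjusted p = 0.0273, edgeR adjusted p = 0.599), and limma voom gave 0.45 (unadjusted p = 0.0360, adjusted p = 0.502).

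Over the 6 libraries, the 3 protein-coding genes whose log2 CPM followed Pik3c3 most closely were Galt, Mark3 and St6gal1, out of 7582 with a mean of at least 10 CPM. Their Pearson correlations with Pik3c3 were 0.978, 0.963 and 0.963, given as a description of values picked for being highest. All of them were highest in knockout 3. St6gal1 had 106, 83.4 and 121 CPM in knockouts 1 to 3, against 83.3, 75.0 and 80.9 CPM in controls 1 to 3.

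Pik3r4 encodes VPS15, the pseudokinase scaffold that holds VPS34. It had 30.7, 29.6 and 31.1 CPM in knockouts 1 to 3, against 33.8, 29.5 and 44.8 CPM in controls 1 to 3. The knockouts had an SD of 0.752 CPM, while control 3 stood above the other controls on 57 reads. Its log2 fold change was -0.22 (SE 0.22), and was -0.07 without control 3, -0.34 without control 2 and -0.04 without both shallow libraries. Pik3c3 and Pik3r4 bind each other as the core of every class III complex; their mean levels per exonic length were 11.8 and 3.15 CPM per kb in knockouts and 9.08 and 3.73 CPM per kb in controls.

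Becn1 encodes Beclin 1, the subunit through which BCL2 family proteins restrain the complex. It had 30.2, 33.5 and 31.5 CPM in knockouts 1 to 3, against 32.8, 26.5 and 44.0 CPM in controls 1 to 3, so that the knockouts lay inside the range of the controls. For Becn1 the log2 fold change was -0.09 (95% interval -0.57 to 0.40), with 0.08 without control 3 and -0.25 without control 2. In GENCODE M21, 43.9% of its exonic bases are shared with Cntd1 on the opposite strand. Cntd1 had 8 reads in control 1 and 0 in the other 5 libraries. Whether reads were counted by strand is not given in the labels.

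Atg14 and Uvrag encode alternative partners of Beclin 1. ATG14 directs the complex to autophagosome formation, and UVRAG defines a separate complex that acts in endosome and autophagosome maturation. Atg14 had 63.0, 59.0 and 55.7 CPM in knockouts 1 to 3, against 54.9, 52.2 and 53.4 CPM in controls 1 to 3. All knockouts lay above all controls, a separation that 6.59% of all genes tested showed in the same direction. The gap between knockout 3 and control 1 was small beside their counting intervals (52.6 to 58.9 CPM for knockout 3). The fold change of Atg14 was 0.15 on the log2 scale (SE 0.17, edgeR adjusted p = 0.999) and ran from 0.08, without knockout 1, to 0.20 over all alternatives.

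Uvrag had 15.7, 12.7 and 20.4 CPM in knockouts 1 to 3, against 12.9, 19.1 and 7.86 CPM in controls 1 to 3. The groups overlapped, and control 3 was again the lowest, on 10 reads (95% Poisson interval 3.77 to 14.5 CPM). The fold change of Uvrag was 0.24 on the log2 scale (SE 0.33), between 0.03 without either control 3 or knockout 3 and 0.60 without control 2. Of its exonic bases, 17.6% are shared with Gm45187 on the opposite strand, which had at most 6 reads in any library.

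Atg14 stood above Uvrag in every library. Per exonic length the log2 ratio of Atg14 over Uvrag was 3.07, 3.28 and 2.52 in knockouts 1 to 3 and 3.16, 2.51 and 3.83 in controls 1 to 3. This is 5.71 to 14.2 times as much per exonic length and 3.87 to 9.65 times per coding length. The knockout values lay within the range of the controls (knockout minus control, -0.21).

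The promoters of these partners are shown because only that of Atg14, of the 7 windows matched, holds CACGTG. This palindrome is the core of the E-box and of the lysosomal regulatory element that TFEB binds, and 7.15% of all windows hold it. Capitals mark this palindrome and, on either strand, the CCCGCC and the CCAAT motifs.
Atg14 (chr14:47568385-47568684, minus strand): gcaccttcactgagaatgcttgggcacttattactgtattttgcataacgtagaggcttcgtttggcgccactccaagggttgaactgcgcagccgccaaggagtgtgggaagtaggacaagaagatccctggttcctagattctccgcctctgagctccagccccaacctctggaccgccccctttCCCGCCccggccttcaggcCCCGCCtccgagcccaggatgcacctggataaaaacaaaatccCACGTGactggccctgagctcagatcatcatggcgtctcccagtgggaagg
Uvrag (chr7:99141095-99141394, minus strand): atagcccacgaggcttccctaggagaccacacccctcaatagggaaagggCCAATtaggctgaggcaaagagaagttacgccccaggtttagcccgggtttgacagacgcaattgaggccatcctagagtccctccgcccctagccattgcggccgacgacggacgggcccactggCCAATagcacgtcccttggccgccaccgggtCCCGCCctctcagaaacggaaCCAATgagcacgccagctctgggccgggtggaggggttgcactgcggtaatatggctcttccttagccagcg
In Atg14 the CACGTG begins at base -1 and spans the annotated start, with 2 CCCGCC matches upstream at -63 and -44. The Uvrag window holds 3 CCAAT matches, at -200, -74 and -22, and 1 CCCGCC match at -43. CCAAT or ATTGG is found in 37.4% of all windows.

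Set in order by level per exonic length, Atg101 was the highest of the 10 genes, with 46.7 ± 4.13 CPM per kb in knockouts and 45.1 ± 11.3 CPM per kb in controls (SD, n = 3 each). It lay at percentile 92.4 of the 11995 protein-coding genes tested, and its range over the 6 libraries, 32.0 to 51.9 CPM per kb, did not overlap that of any other subunit. Atg14, Ulk2, Pik3c3 and Atg13 came next, with means from 13 to 8.31 CPM per kb over the 6 libraries. Neighbours among these genes overlapped in range. Becn1 (4.68) and Pik3r4 (3.44 CPM per kb) overlapped each other and lay below Atg13 in all libraries.

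At the low end were Ulk1, Uvrag and Rb1cc1, with means of 1.81, 1.63 and 1.09 CPM per kb and overlapping ranges, and the highest Ulk1 value also reached the lowest of Pik3r4. Rb1cc1 was at percentile 25.3. The order of the means was the same in knockouts and in controls, for all 10 positions. Some of these positions were near ties: in controls, Ulk1 and Uvrag had 1.48 ± 0.784 and 1.47 ± 0.624 CPM per kb (SD, n = 3 each). The control means of Atg14 and Ulk2 were 12.4 and 12.3 CPM per kb. Per coding length, 5 genes changed position: Becn1 moved up to position 3, Ulk2 to 4 and Pik3c3 to 6, and Ulk1 and Uvrag exchanged places, while Atg101 stayed highest and Rb1cc1 lowest. The middle of the order thus depended on the length used.

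**Figure D3:**
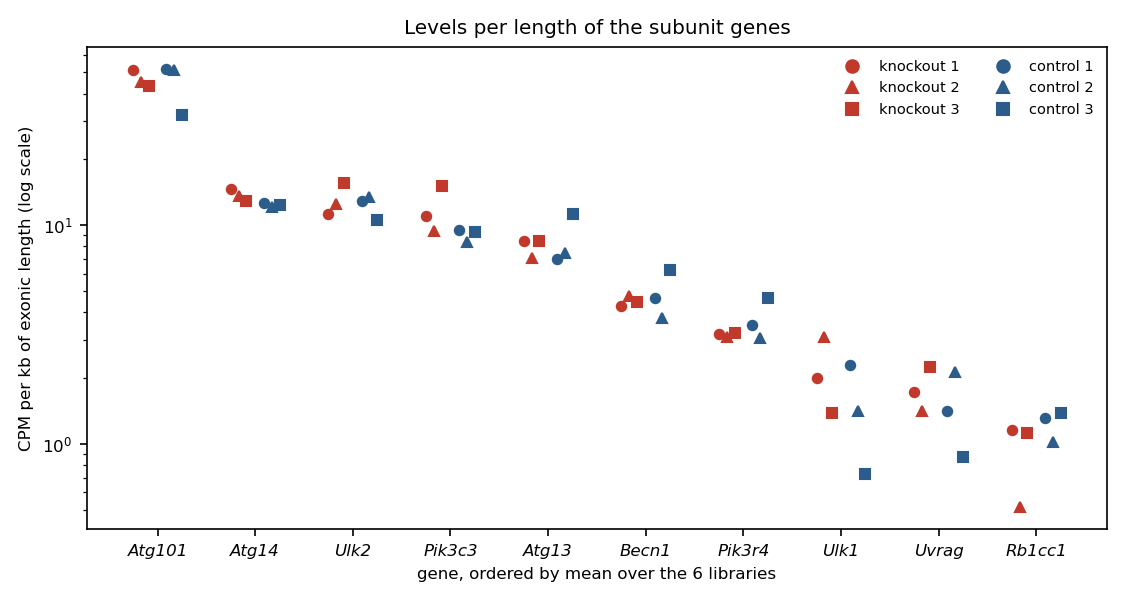
TMM-scaled CPM per kb of exonic length in each library, on a log axis, for the subunit genes ordered by their mean; knockouts in red, controls in blue. Atg101, at 32.0 to 51.9 CPM per kb, stands apart from the other genes. Knockouts and controls keep the same order of means, some of which nearly tie.

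Control 3 lay outside the range of the other 5 libraries for 8 of the 10 genes. Among the 5380 genes of similar level this held for 58.6%, and among all genes tested for 61.2%. Of the 10 genes, knockout 2 lay outside the other 5 libraries for 2, and for 36.2% of the genes of similar level. Leaving out both shallow libraries moved 4 of the fold changes to the other sign, those of Ulk1, Atg13, Atg101 and Becn1, at -0.13, 0.22, -0.13 and 0.05. Rb1cc1, Pik3c3, Pik3r4, Atg14 and Uvrag kept their sign in all 17 alternatives.

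**Figure D4:**
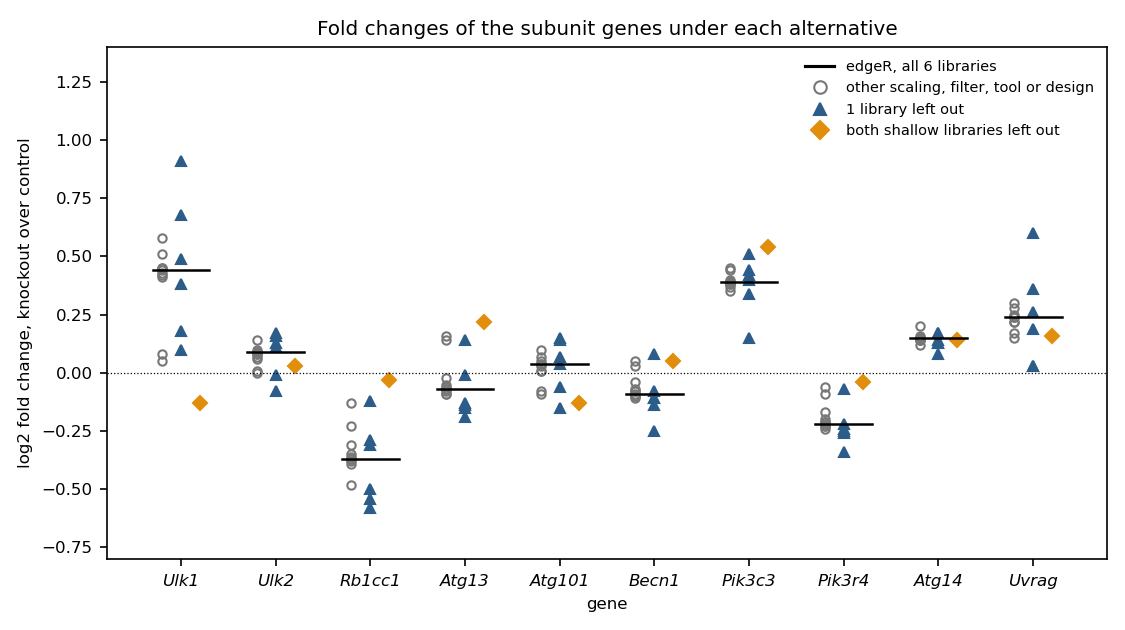
Log2 fold change of each subunit gene, knockout over control, with all 6 libraries (black bar), under other scalings, filters, tools or designs (circles), with 1 library left out (triangles) and without both shallow libraries (diamonds). Ulk1 spreads from -0.13 to 0.91, and Atg14 from 0.08 to 0.20.

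Genes that regulate these complexes were examined beside them, in a list of 58 of which 56 were tested; Pik3c2g and Usp13 were too low. EdgeR called 0 of the 56, beside 0.0443% of all genes tested, and DESeq2 and limma voom likewise called 0. At an unadjusted p under 0.05, 1 was higher and 1 lower, 2 of 56, a share no higher than the 4.32% of all genes tested (2.34% higher and 1.98% lower). Of the 56, 23 had a fold change above 0 and 33 below, with a median of -0.08. The groups did not overlap in 3 genes that were higher and 6 that were lower, 16.1% of the list. Over all genes tested this share was 11.1%, with 6.59% higher and 4.47% lower.

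Among partners and inhibitors of the class III complexes, 3 of 10 fold changes were above 0. Dapk1, a death-associated kinase that phosphorylates Beclin 1, had 8.20, 15.6 and 10.8 CPM in knockouts 1 to 3, against 5.34, 6.24 and 7.86 CPM in controls 1 to 3. All knockouts lay above all controls, control 3 at 10 reads. The fold change of Dapk1 was 0.86 on the log2 scale (SE 0.39, unadjusted p = 0.0442, edgeR adjusted p = 0.999). It was 0.58 without knockout 2 and 1.04 without knockout 1. Mcl1, a BCL2 family gene, had 0.22 (SE 0.19), with 0.04 without control 3 and 0.34 without control 1.

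Of 11 genes for PI3P turnover, 6 were above 0. Mtmr4, a myotubularin phosphatase that removes the phosphate of PI3P, had 21.1, 28.1 and 19.1 CPM in knockouts 1 to 3, against 34.1, 28.7 and 40.9 CPM in controls 1 to 3. The groups were separate, though knockout 2 and control 2 nearly met. For Mtmr4 the log2 fold change was -0.60 (SE 0.24, unadjusted p = 0.0240, edgeR adjusted p = 0.999), and -0.78 to -0.49 when libraries were left out. Mtmr2, of the same family, had -0.28 (SE 0.21), with -0.10 without control 1, -0.39 without control 3 and -0.41 without both shallow libraries.

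The upstream kinases gave 4 of 12 fold changes above 0. Prkab1, 1 of the 2 AMPK beta subunit genes, had 125, 125 and 105 CPM in knockouts 1 to 3, against 147, 148 and 137 CPM in controls 1 to 3, with no overlap. Its log2 fold change was -0.29 (SE 0.16, unadjusted p = 0.0823, edgeR adjusted p = 0.999). With 1 library left out, Prkab1 lay between -0.35 and -0.23, and without both shallow libraries at -0.37. The other beta subunit gene, Prkab2, was added beside it after its values were seen and had 0.80 (SE 0.59), with overlapping groups and 2 reads in control 3. Akt1s1, which encodes the mTORC1 inhibitor PRAS40, had -0.84 (SE 0.46), with 6 reads in control 3. It ran from -1.01 without control 3 to -0.70 without control 1 over the fits with 1 library left out. Without both shallow libraries it was -1.05 (edgeR unadjusted p = 0.023, adjusted p = 0.558), and limma voom gave -1.03 (unadjusted p = 0.00569, adjusted p = 0.284).

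Of 9 ubiquitin regulators tested, 4 were above 0. The ligase gene Stub1 (-0.63, SE 0.30) and the deubiquitinase gene Usp10 (-0.28, SE 0.17) had the smallest unadjusted edgeR p, 0.0537 and 0.120. Of the exonic bases of Stub1, 42.3% are shared with other genes. Stub1 ran from -0.77 without control 3 to -0.46 without knockout 3 over the fits with 1 library left out. Without both shallow libraries Stub1 was at -0.86, and limma voom gave -0.79 (unadjusted p = 0.00576, adjusted p = 0.285). Of 3 further ULK family kinases, Ulk3 had 0.42 (SE 0.34) and Ulk4 -0.35 (SE 0.62). Ulk3 was at 0.18 without knockout 2, 0.27 without control 3 and 0.05 without both shallow libraries. Ulk4 turned to 0.42 without control 3, and was at -0.09 without knockout 2 and -0.81 without control 2. Class I and II PI3K genes had 4 of 11 above 0, with Pik3r6 at 0.23 (SE 0.18) and Pik3r3 at -1.38 (SE 0.85); Pik3r3 had 3 to 44 reads in knockouts and 10 to 87 in controls. Pik3r3 was at -0.49 without control 3, -2.15 without knockout 3 and -0.32 without both shallow libraries, and Pik3r6 at 0.12 without either knockout 3 or control 3. The edgeR adjusted p was 0.999 for each of these genes.

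**Figure D5:**
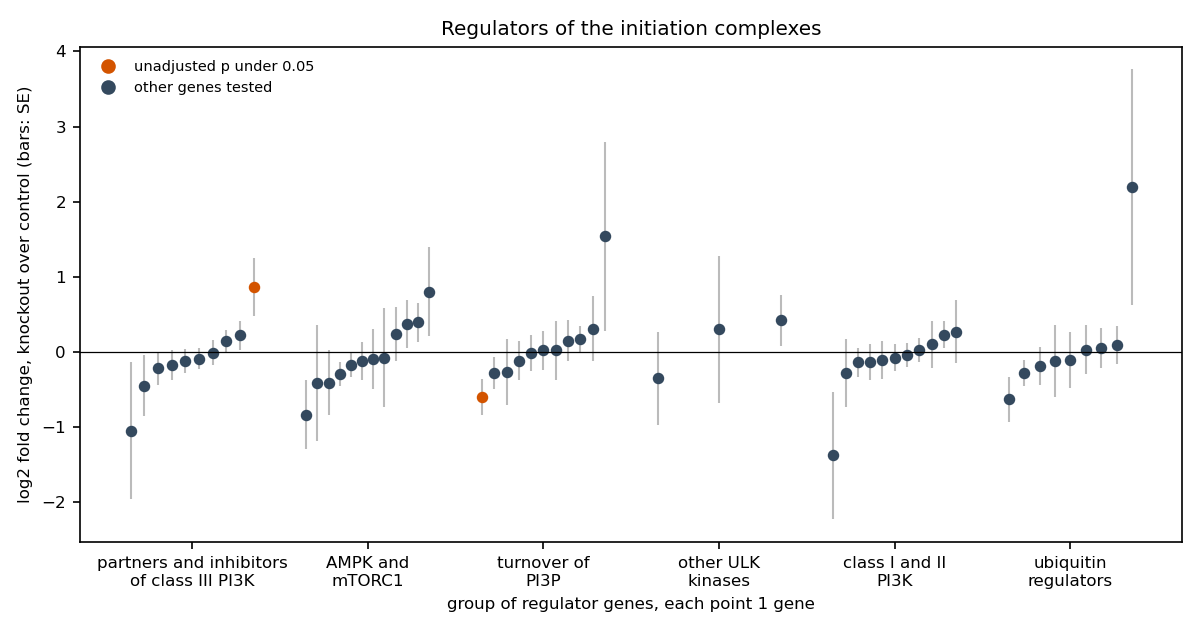
Log2 fold change, knockout over control, of the 56 regulator genes tested, by group, with bars for the standard error. Most points lie near 0, and Mtmr4 (-0.60) and Dapk1 (0.86) are those at an unadjusted edgeR p under 0.05. The points farthest from 0, Nedd4 (2.19, SE 1.57), Mtmr7 (1.54, SE 1.26) and Pik3r3 (-1.38, SE 0.85), have wide bars. Nedd4 and Mtmr7 were named here after their values were seen.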

How the data were processed

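Libraries were made from sorted live microglia with intermediate CD45 and positive CD11b, with SMARTer Ultra Low cDNA, per the labels' protocols. The deposited table holds raw read counts per gene, per the file headers and values. The submitters' processing notes name bcl2fastq, STAR, Subread, featureCounts and Salmon with build GRCm39; which annotation release and strand option were used is not stated there. No molecular identifiers are mentioned. The Poisson intervals of single libraries cover counting error only, while the intervals of the fold changes also include the spread between libraries.

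Of 55774 rows, 287 with a repeated identifier were dropped, and 0 named no gene. The test was edgeR 4.0.16 (R 4.3.3): default expression filter, TMM scaling, robust quasi-likelihood F-test, group as the only term, Benjamini-Hochberg adjustment over 15787 genes, with calls at an adjusted p below 0.05. The SE is the fold change over the root of its F statistic, and 95% intervals use the fit's degrees of freedom. DESeq2 1.42.0 and limma 3.58.1 (voom) were alternatives. The steps were tested on simulated data. Lengths and shared exonic bases come from GENCODE M21, an annotation of the preceding assembly, which holds 99.5% of the identifiers.

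The 10 genes and the lists were chosen with earlier results of these data known. Regulators named are, in each of 6 groups, the called genes or else the 2 with the smallest p. Nothing says that same-numbered mice are related. P-values weigh the difference between the groups against the spread between libraries of the same group. No libraries of the same group agreed within sampling noise (lowest chi-square per degree of freedom 39.4).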

Additional observations from a re-analysis of the deposited data

How the results depend on the processing

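The count of subunit genes called stayed at 0 in each direction in every alternative, as did the count of regulators called. Over all genes, calls were 60 higher and 42 lower with no filter, 49 and 34 with DESeq2, 9 and 6 with limma voom, 1 and 1 without the robust option, 9 and 30 without both shallow libraries, and 1 to 15 higher and 1 to 35 lower with 1 library left out (most without control 3). Voom with quality weights called 2 higher. With the replicate number as a block, calls were 16 higher and 9 lower. The numbers were not taken as pairs, because the labels state no pairing. Deviations of same-numbered libraries had correlations of 0.32, -0.27 and -0.11. Those of other numbers ran from -0.33 to 0.35, the highest between the shallow libraries knockout 2 and control 3. Deviations from a mean of 3 libraries depend on each other, so these values could not decide on pairing. Some log2 fold changes turned sign, among them that of Ulk1, the largest in the main fit (0.44). Under voom, Atg13 turned to 0.16, Atg101 to -0.09 and Becn1 to 0.05. With quality weights, Atg13 turned to 0.14, Atg101 to -0.08 and Becn1 to 0.03, and Ulk2 was at 0. Without control 3, Ulk2 turned to -0.01, Atg13 to 0.14, Atg101 to -0.15 and Becn1 to 0.08. Without both shallow libraries, Ulk1 turned to -0.13, Atg13 to 0.22, Atg101 to -0.13 and Becn1 to 0.05. Atg101 turned to -0.06 without knockout 1, and Ulk2 to -0.08 without knockout 3. With 1 library left out, Ulk2 ran from -0.08 to 0.17, Atg13 from -0.19 to 0.14, Atg101 from -0.15 to 0.15, Becn1 from -0.25 to 0.08 and Ulk4 from -0.81 to 0.42. Ulk4 turned to 0.51 under voom, 0.35 with quality weights, 0.42 without control 3 and 0.68 without both shallow libraries. The cause was not tested. Coding length was taken from GENCODE after the data had been seen, because the planned protein table was not available. It moved 5 genes in the order by level, and library totals moved 0. With 1 library left out, the log2 ratio differences ran from 0.20 to 0.94 for Ulk1 over Ulk2, from -0.54 to 0.12 for Atg14 over Uvrag and from -0.41 to 0.29 for Atg13 over Atg101 (knockout minus control). The lowest read counts, in control 3, were those of Ulk1 (6) and Uvrag (10).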
